A study of Mus musculus with 16 samples.

Results

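The genes described here are 10 immune checkpoint and co-stimulation genes, chosen by name and not by any measured value, out of 26466 genes in the deposited table of all tumours. They are 5 ligands (Cd274, Pdcd1lg2, Cd80, Cd86 and Cd47) and 5 receptors (Pdcd1, Ctla4, Lag3, Havcr2 and Sirpa), and all 10 passed the filter on low values. They were measured by bulk RNA sequencing in 16 transplanted mouse tumours of glioblastoma (GBM) models, with 1 library per tumour. The labels name 2 tumour kinds, Type 1 and Type 2, each as Control or as TAM depleted, where TAM stands for tumour-associated macrophage. Type 1 had 5 Control and 3 TAM depleted tumours, and Type 2 had 4 of each. The genotype and driver of each kind, the cell it arose from, the host strain, age and sex, the treatment of the controls and the way TAMs were depleted are not stated in the sources at hand. No label links tumours to animals, and p-values therefore reflect only how far these libraries vary.

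Checkpoint and co-stimulation molecules set how strongly a T cell or a macrophage answers the cell it touches. CD80 and CD86 on antigen-presenting cells activate T cells through CD28 and restrain them through CTLA-4, which competes for the same ligands. PD-L1 (Cd274) and PD-L2 (Pdcd1lg2) engage PD-1 (Pdcd1) on activated T cells and dampen their signalling. LAG-3 and TIM-3 (Havcr2) are further inhibitory receptors of activated T cells, and TIM-3 is also carried by dendritic cells, macrophages and microglia. CD47 is displayed by nearly all cells and engages SIRPα (Sirpa) on myeloid cells, which restrains phagocytosis, and Sirpa is also abundant in neurons.

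Depth was between 4.21 and 18.3 M (mega) reads in each library. Odour and pheromone receptor genes, which the nose expresses, took over 2500 reads per M in 9 libraries (the lowest at 2717) and 811 or fewer in the other 7, called high-background and low-background libraries. All 5 Type 1 Control libraries were high-background and all 3 Type 1 TAM depleted libraries low-background, so in Type 1 this background and the treatment cannot be told apart. In Type 2 the high-background libraries were Control 1 and 3 and TAM depleted 3 and 4. The 14 macrophage markers, among them Csf1r, Aif1 and C1qa, had reads in every library. Their mean log2 level was lower in depleted than in Control tumours of Type 2, with a difference of -1.41 (8.03 ± 0.53 against 6.62 ± 0.53, SD, n = 4 each, 2-sided exact permutation p = 0.0286, the lowest value possible with 70 splits). In Type 1 the difference was -0.57 (6.95 ± 0.29, n = 5, against 6.38 ± 0.60, n = 3, SD, exact permutation p = 0.179). In bulk samples, fewer cells of a type and less RNA per cell cannot be told apart.

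In GENCODE vM21 on GRCm38, the PD-1 ligand genes are neighbours, with Cd274 at chr19:29367455-29388095 and Pdcd1lg2 at chr19:29410919-29471161, both on the plus strand. Cd80 (chr16:38455561-38496335, plus), Cd86 (chr16:36603869-36666081, minus) and Cd47 (chr16:49800533-49915010, plus) share chromosome 16. Pdcd1 (chr1:94038305-94052553, minus) and Ctla4 (chr1:60887000-60915832, plus) lie on chromosome 1, Lag3 at chr6:124904361-124911705 (minus), Havcr2 at chr11:46454935-46481255 (plus) and Sirpa at chr2:129592835-129632228 (plus). The spans of Cd274 and Pdcd1lg2 overlap those of annotated antisense genes, AC119228.1 and A930007I19Rik. The library kit does not mark strand, so reads from any shared exon cannot be told apart by strand. Whether exons are shared was not examined. Ctla4 overlaps Rpl18-ps1, a pseudogene on the same strand that was given 1002 reads over the 16 libraries, and A930007I19Rik was given 870.

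The promoters of the receptor PD-1 and of its ligands are shown because the ratio of these partners differed between groups of tumours, as given further on. Each sequence is the 250 bases before the RefSeq start on GRCm38.p6, read along the gene's strand, at chr19:29367188-29367437 for Cd274 (plus), chr19:29410669-29410918 for Pdcd1lg2 (plus) and chr1:94052554-94052803 for Pdcd1 (minus). Capitals mark GAGGAA, the core bound by PU.1, a myeloid and B cell transcription factor, on either strand.
Cd274: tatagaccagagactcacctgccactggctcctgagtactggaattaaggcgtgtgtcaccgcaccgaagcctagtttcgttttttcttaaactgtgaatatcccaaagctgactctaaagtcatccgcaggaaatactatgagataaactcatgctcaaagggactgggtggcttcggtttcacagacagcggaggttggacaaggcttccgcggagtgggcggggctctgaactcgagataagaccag
Pdcd1lg2: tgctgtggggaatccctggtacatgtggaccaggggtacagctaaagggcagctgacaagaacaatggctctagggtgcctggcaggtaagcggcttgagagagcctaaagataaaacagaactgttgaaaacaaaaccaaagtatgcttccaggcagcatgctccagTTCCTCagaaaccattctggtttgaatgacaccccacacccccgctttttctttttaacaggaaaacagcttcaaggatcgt
Pdcd1: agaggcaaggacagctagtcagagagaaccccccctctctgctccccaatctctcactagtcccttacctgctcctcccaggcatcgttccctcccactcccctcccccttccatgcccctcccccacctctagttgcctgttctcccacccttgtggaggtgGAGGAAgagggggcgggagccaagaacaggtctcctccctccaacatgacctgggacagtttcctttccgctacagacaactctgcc
The GAGGAA core lay 82 bases before the start of Pdcd1lg2, on the opposite strand, and 87 bases before that of Pdcd1, and none lay in the Cd274 window. The table of promoters held 7 of the 10 genes, without Cd86, Lag3 and Sirpa. The only other one with the core was Havcr2, 8 bases before its start, and 23.3% of 32851 mouse promoter windows of this length hold it. The STAT site TTCNNNGAA (in 7.02% of windows), the IRF element (2.98%) and TATAAA (12.4%), searched on both strands, were in none of the 7. A match is a run of letters and not a measured site, and no match says only that these letters are not in this window.

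Per kb of exon, the phagocytosis checkpoint pair had the highest mean levels in every group. In Type 2 Control tumours Cd47 was at 194 ± 92.7 and Sirpa at 190.0 ± 108 normalized counts per kb (SD, n = 4 each), where a normalized count is the read count divided by the authors' scaling factor of the library. Cd274 followed at 47.1 ± 34.7, Lag3 at 46.3 ± 25.5 and Cd86 at 34.9 ± 8.17 on the same scale. Havcr2 (25.9 ± 7.57), Pdcd1 (22.1 ± 14.2), Ctla4 (19.5 ± 13.3), Pdcd1lg2 (18.03 ± 11.1) and Cd80 (17.4 ± 6.68) closed the order. Neighbours in this order overlapped over the 4 libraries at each step. In Type 1 Control tumours the levels per kb ran from Sirpa at 149 ± 74.5 and Cd47 at 97.0 ± 50.3 down to Pdcd1 at 9.70 ± 2.65 (SD, n = 5 each), again with overlap at each step. After depletion Sirpa and Cd47 overlapped each other, and every library's Cd47 level per kb was above every library's level of the next gene, Cd274, in both tumour kinds. Cd47 ranged there from 86.2 to 235 against 7.28 to 31.7 for Cd274 in Type 1 TAM depleted tumours, and from 122 to 497 against 6.91 to 64.9 in Type 2 TAM depleted tumours.

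How far these levels stood above the background of their own library differed widely. The background was taken as the median reads per kb of exon over 963 receptor genes of the nose. Pdcd1 was at 0.81 times this median over the 9 high-background libraries (the median of the libraries) and at 15.7 times over the low-background ones. The ratio could not be formed in Type 2 TAM depleted 2, where the receptor-gene median was 0, so the low-background values are medians over the other 6. In high-background libraries Cd80 was at 1.21, Pdcd1lg2 at 1.29, Ctla4 at 1.52, Havcr2 at 1.66, Cd86 at 1.84 and Cd274 at 1.97 times. Lag3 was at 3.04, Cd47 at 11.1 and Sirpa at 13.6 times there. Sirpa and Cd47 lay above the 95th percentile of the receptor genes in all 16 libraries, Cd274 and Lag3 in 15, Cd86 in 12, Havcr2 in 11 and Ctla4 in 9. Cd80 and Pdcd1 did so in 8, and Pdcd1lg2 in 7. Of the 9 high-background libraries, Cd80 passed that percentile in 1, Pdcd1 in 2, and Pdcd1lg2 and Ctla4 in 3 each, so in most of them these 4 genes were not separated from the receptor genes. Havcr2 passed it in 4 of them, Cd86 in 5, and Cd274 and Lag3 in 8 each.

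**Figure D1:**
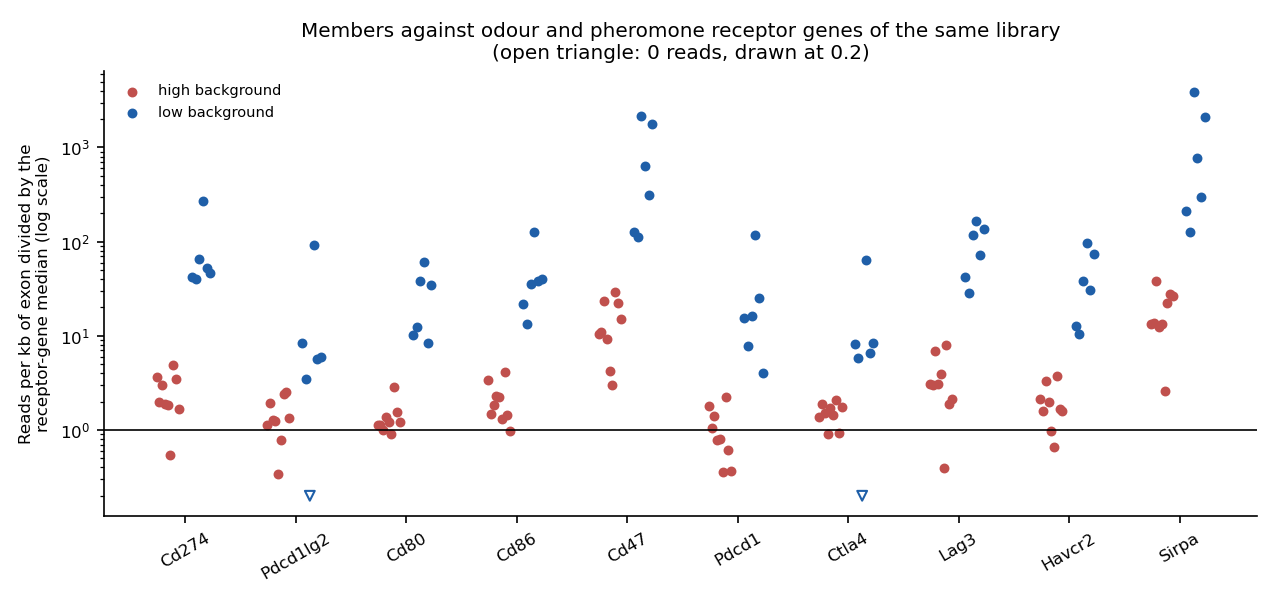
Reads per kb of exon of each gene in each library, divided by the median over receptor genes of the nose in that library (log axis), with 9 high-background libraries in red and 6 low-background libraries in blue. Type 2 TAM depleted 2 is not drawn because its receptor-gene median was 0. The line marks the receptor-gene median: in red, Pdcd1 scatters around it at a median of 0.81, while Sirpa sits at 13.6.

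Type 2 tumours were compared with and without depletion to ask which of these genes move in this model. Cd86, the co-stimulatory ligand of antigen-presenting cells, fell 3.73-fold, and it was the only one of the 10 genes to pass the test. The ligands Cd274, Pdcd1lg2 and Cd80 and the receptors Pdcd1, Ctla4, Lag3 and Havcr2 were lower in mean without passing. The Sirpa and Cd47 values were higher in mean without passing. The adjusted p threshold was 0.05. So 1 of 10 was called, against 3.61% of the 26463 genes tested (956 genes, and 1.24% called lower). The count over all genes rested on single libraries, with 100 genes without Control 3, 302 without TAM depleted 1 and 285 without TAM depleted 2. By direction alone 8 of 10 were lower, against 59.4% of all genes, and the median log2 fold change was -1.08 for the 10 genes and -0.21 over all genes. The median of the 10 genes was -0.71 without TAM depleted 1 (-0.11 over all genes) and -0.50 with quantile normalization (-0.05 over all genes). After subtraction of the receptor-gene background 6 of the 10 were lower, with a median of -0.31 against 0.05. Each scaling tried moved the median of all genes in this comparison, from -0.21 to between -0.47 and -0.05. Of the genes called, 627 of 956 were higher after depletion, against 623 of 1300 with upper quartile scaling and 546 of 1242 with scaling to reads outside receptor genes and Gm10800, and Cd86 was called lower in all 3.

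Cd86 was at 122, 162, 90.8 and 137 normalized counts in Type 2 Control tumours 1 to 4, and at 21.6, 37.1, 29.1 and 49.2 after depletion. Every depleted tumour was below every control, a separation downward that 3.39% of all genes showed and no other of the 10 genes did. The mean was 128 ± 29.9 in controls and 34.2 ± 11.8 after depletion (SD, n = 4 each). This is a log2 fold change of -1.90 (SE 0.40, 95% interval -2.74 to -1.06, limma-trend adjusted p = 0.0196). Within the high-background libraries the log2 fold change was -1.45 (2 against 2, limma-trend adjusted p = 0.141) and within the low-background ones -2.35 (adjusted p = 0.293). Of those high-background libraries, Cd86 was above the 95th percentile of the receptor genes in Control 3 only, and its reads per kb were 1.295 times the receptor-gene median in Control 1, 1.45 times in TAM depleted 3 and 0.976 times in TAM depleted 4. With the background set as a term in the limma fit the adjusted p was 0.00851. The call was lost without Control 3 (limma adjusted p = 0.0506), without TAM depleted 1 (0.0592), with the spread estimated from the 8 Type 2 libraries alone (0.117) and after subtraction of the receptor-gene background (0.191), with a log2 fold change from -3.08 to -1.71 in these 4.

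Cd80 binds the same receptors as Cd86 and showed a different pattern. It was at 85.8, 78.5, 64.1 and 30.03 normalized counts in Type 2 Control tumours and at 18.8, 47.2, 31.3 and 62.3 after depletion. The groups overlapped, with Control 4 below 3 of the 4 depleted tumours. The log2 fold change of Cd80 was -0.71 (SE 0.44, limma-trend adjusted p = 0.419), and it was 0.14 once the receptor-gene background was subtracted. Per kb of exon, Cd86 exceeded Cd80 in each Type 2 Control tumour. The log2 ratios, with 1 added to each normalized count, were 0.51, 1.06, 0.51 and 2.16. After depletion the log2 ratios were 0.21, -0.32, -0.08 and -0.32, all below those of the controls. The mean ratio differed by -0.71 within high-background and by -1.67 within low-background libraries. In the high-background TAM depleted 3 and 4, Cd86 was at 1.45 and 0.976 times the receptor-gene median and Cd80 at 1.54 and 1.22 times. In Control 1 Cd80 was at 0.904 times. The ratios of these libraries therefore rest on few reads of the genes' own. This pair of genes, like the other ratios given here, was chosen after its values were seen, and no test is given for it.

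The PD-1 axis was low and variable. Pdcd1 was at 17.9, 79.0, 25.8 and 47.6 normalized counts in Type 2 Control tumours and at 1.14, 18.5, 6.47 and 9.83 after depletion, where TAM depleted 1 held 2 reads. The highest depleted tumour lay just above the lowest control. Its log2 fold change was -2.30 (SE 0.69) and did not pass (limma-trend adjusted p = 0.0721), and it did pass in limma with the background set as a term (adjusted p = 0.0333) and with upper quartile scaling (0.0409). Cd274 was at 50.04, 340.0, 108 and 185 normalized counts in controls and at 25.0, 235, 69.0 and 83.6 after depletion. In both groups replicate 2 was the highest and the groups overlapped (log2 fold change -0.82, SE 0.64, limma-trend adjusted p = 0.533). Within high-background libraries the Cd274 log2 fold change was 0.047, and within low-background ones -1.68. Pdcd1lg2 was at 39.3, 62.9, 28.5 and 10.8 in controls and at 1.71, 6.58, 27.0 and 36.1 after depletion, with the values of both depleted high-background tumours inside the control range (log2 fold change -1.35, SE 0.92, limma-trend adjusted p = 0.465).

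Set against its receptor within each library, Cd274 was higher after depletion, though its own level did not rise by log2 fold change. That value was -0.82 in Type 2 and -0.09 in Type 1 for Cd274, against -2.30 and -0.84 for Pdcd1. The ratio was thus higher because Pdcd1 was lower by more. For this ratio 1 was added to each normalized count, which lowers it most where Pdcd1 is low. The log2 ratio of Cd274 to Pdcd1 per kb was 0.53, 1.18, 1.11 and 1.03 in Type 2 Control tumours and 2.698, 2.686, 2.32 and 2.06 after depletion. The groups did not overlap, and their means were 0.96 ± 0.30 and 2.44 ± 0.31 (SD, n = 4 each). The ratio was higher after depletion by 1.37 within high-background and by 1.59 within low-background libraries. In Type 1 the log2 ratio was 0.99, 0.85, 1.04, 1.19 and 1.11 in controls and 1.41, 2.24 and 1.72 after depletion, again without overlap. Those controls were all high-background and those depleted tumours all low-background, so treatment and background cannot be told apart in this Type 1 ratio. Pdcd1 had 2 to 142 reads per library in Type 2. Of the high-background ones there, it was at 0.36 (Control 1), 0.61 (TAM depleted 3) and 0.37 times (TAM depleted 4) the receptor-gene median. In Control 3 it was at 2.22 times, above the 95th percentile of the receptor genes. The median over all 9 high-background libraries was 0.81 times, so in most of them the ratio rests on few Pdcd1 reads of its own. In Type 2 TAM depleted 1, with 2 Pdcd1 reads, the levels per kb without the added 1 were 6.91 for Cd274 and 0.59 for Pdcd1.

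**Figure D2:**
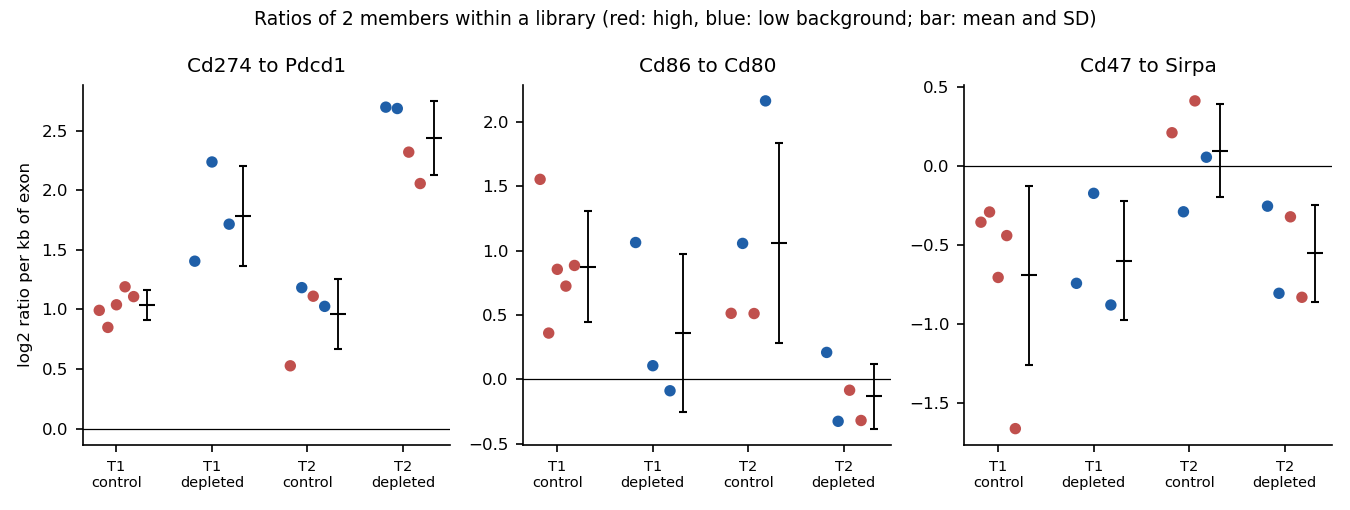
Log2 ratio per kb of exon of Cd274 to Pdcd1, Cd86 to Cd80 and Cd47 to Sirpa in each of the 16 libraries by group, with the mean and SD (T1, Type 1; T2, Type 2; red, high-background; blue, low-background). Each normalized count had 1 added before the ratio. The Cd274 to Pdcd1 ratio of the 4 Type 2 TAM depleted tumours lies from 2.06 to 2.698, above all Type 2 Control tumours.

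The receptors Ctla4, Lag3 and Havcr2 were also lower in mean after Type 2 depletion without passing the test. Which cells their reads came from was not tested. Ctla4, the inhibitory counterpart of CD28, was at 85.8, 51.8, 29.4 and 14.7 normalized counts in controls and at 2.84, 13.8, 11.9 and 55.7 after depletion. Its depleted tumour 4, a high-background library, lay above 3 of the 4 controls (log2 fold change -1.43, SE 0.85, limma-trend adjusted p = 0.403). Lag3, which binds MHC class II, was at 21.4, 121, 102 and 146 in controls and at 42.7, 33.5, 21.6 and 62.3 after depletion. Control 1, with 6 Lag3 reads, was the lowest of the 8 libraries. TAM depleted 1 had 75 Lag3 reads, and the mean log2 level of the T cell markers was lowest there, at 2.16. The Lag3 log2 fold change was -1.07 (SE 0.52, limma-trend adjusted p = 0.290), and without Control 1 it was -1.68 (adjusted p = 0.0370). Havcr2 was at 46.5, 92.9, 61.4 and 81.0 in controls and at 29.6, 22.1, 24.8 and 59.0 after depletion, where only TAM depleted 4 reached the control range (log2 fold change -1.10, SE 0.42, limma-trend adjusted p = 0.169).

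The phagocytosis checkpoint pair had positive log2 fold changes in Type 2. Sirpa was at 329, 1338, 651 and 1415 normalized counts in controls and at 1517, 4269, 746 and 1801 after depletion. Of the depleted tumours, 3 were above every control and TAM depleted 3 was inside the control range (log2 fold change 1.11, SE 0.58, limma-trend adjusted p = 0.332). Cd47 was at 486, 1398, 1106 and 1877 in controls and at 1624, 3119, 763 and 1293 after depletion. These groups overlapped broadly (log2 fold change 0.46, SE 0.54, limma-trend adjusted p = 0.677), and with quantile normalization the Cd47 value was -0.000388. The 10 neuron markers, such as Snap25, were higher by a mean of 3.59 on the log2 scale in the same depleted tumours (7.21 in controls and 10.8 after depletion, exact permutation p = 0.0286, n = 4 each). Their part in the Sirpa and Cd47 values was not tested. The log2 ratio of Cd47 to Sirpa per kb was 0.21, -0.29, 0.41 and 0.05 in controls and -0.26, -0.81, -0.32 and -0.83 after depletion, with Control 2 inside the depleted range.

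**Figure D3:**
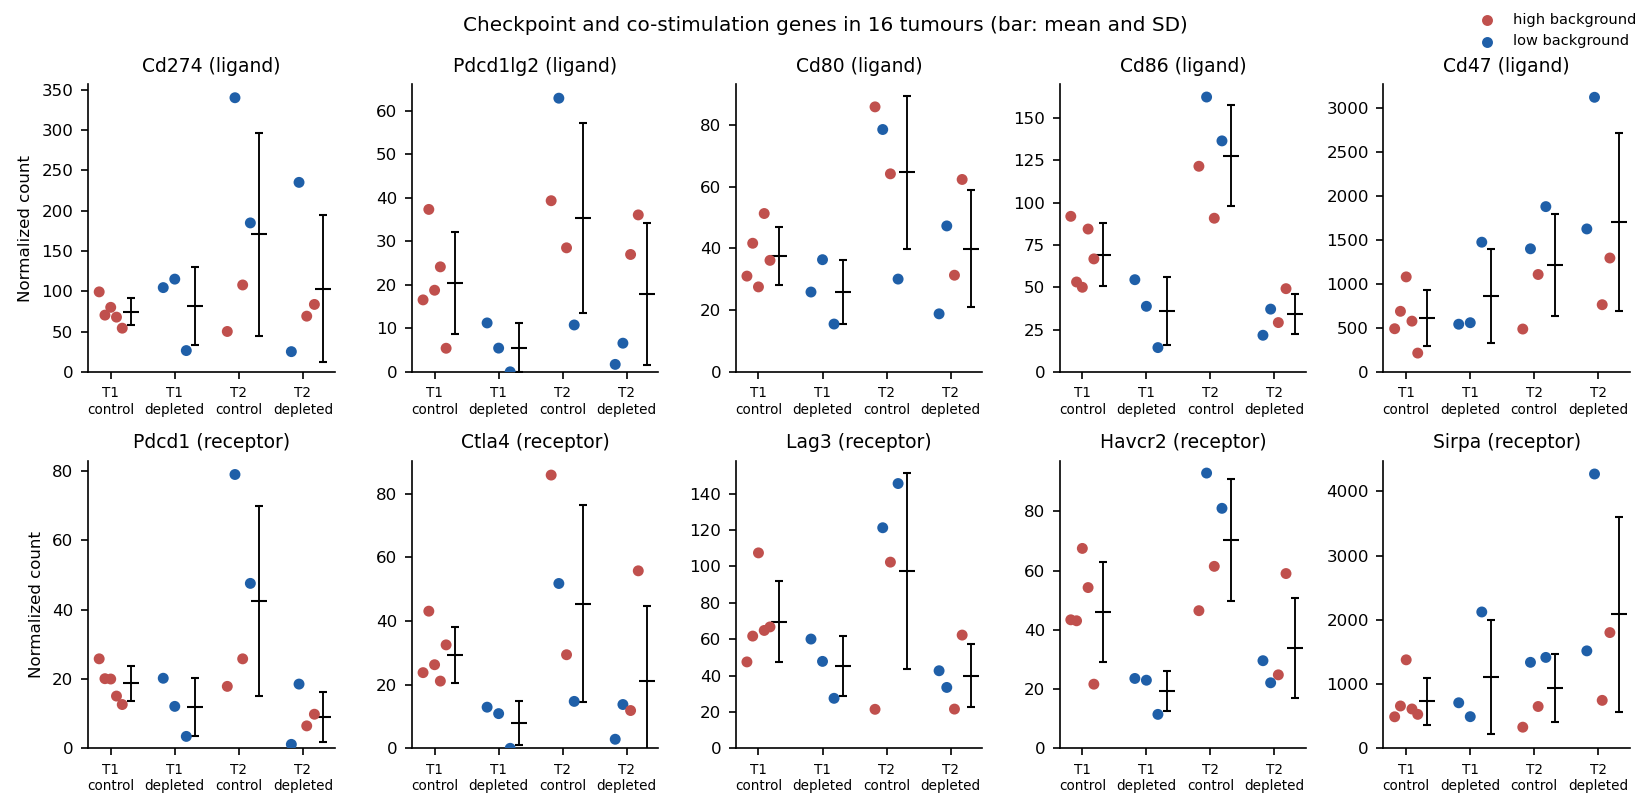
Normalized counts of the 10 genes in each of the 16 tumours by group (linear axes from 0), with the mean and SD beside the points and high-background libraries in red. In the Cd86 panel the 4 Type 2 TAM depleted tumours, from 21.6 to 49.2, all lie below the 4 Type 2 Control tumours, from 90.8 to 162.

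Split by background set, the values of the low-background tumours stood further from 0 for most genes. In Type 2, 7 of the 10 genes were lower after depletion in the high-background libraries and 8 in the low-background ones, against 58.8% and 59.5% of all genes. The median log2 fold change of the 10 genes was -0.41 and -1.75, and that of all genes -0.20 and -0.21. Pdcd1 was at -1.32 and -3.27, Lag3 at -0.35 and -1.79, Havcr2 at -0.47 and -1.72, and Ctla4 at -0.93 and -1.94 (high-background and then low-background). Cd80 stood at -0.73 and -0.69, Sirpa at 1.32 and 0.89, and Cd47 at 0.44 and 0.47, so Cd80 and Cd47 were near equal in both sets and Sirpa was larger in the high-background one. None of the 10 genes passed the limma test within either set, where 573 (high-background) and 0 (low-background, 3669 at an unadjusted p under 0.05) of all genes did. Whether the sets differ in their response was not tested.

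**Figure D4:**
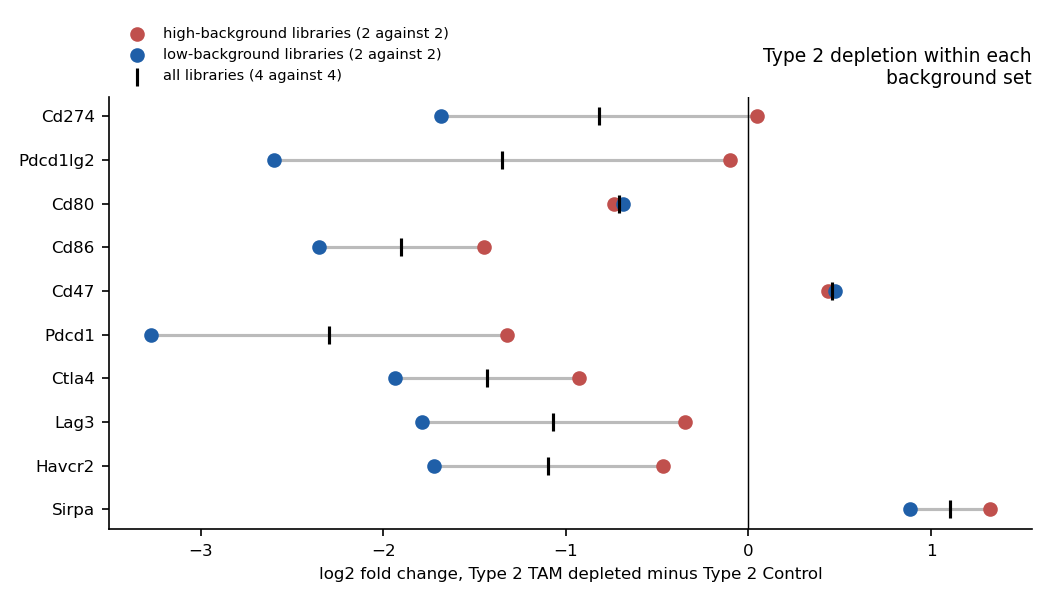
Log2 fold change of Type 2 TAM depleted minus Type 2 Control for each gene, in the high-background libraries alone (red, 2 against 2), the low-background libraries alone (blue, 2 against 2) and all libraries (tick, 4 against 4). Pdcd1 spans -1.32 to -3.27, and the Cd80 and Cd47 points nearly coincide.

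Markers of the cells that carry these genes moved in the same Type 2 tumours. All 14 macrophage markers were lower after depletion and 4 were called, and all 12 T cell markers were lower with 0 called. Over all genes 59.4% were lower and 1.24% were called lower. The summed macrophage markers ranged from 3578 to 9909 normalized counts in Type 2 Control tumours and from 1672 to 3588 after depletion. The summed T cell markers ranged from 534 to 802 and from 69.97 to 528, and their mean log2 level differed by -1.69 (5.57 ± 0.25 to 3.88 ± 1.24, SD, n = 4 each, exact permutation p = 0.0286). The 10 microglia markers differed by a mean of -0.55 (exact permutation p = 0.257, n = 4 each) and the 8 dendritic cell markers by -1.17 (exact permutation p = 0.114). The permutation p-values of marker lists were not adjusted over the lists.

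Relative to the mean of the macrophage markers, Cd86 differed by -0.49 on the log2 scale after Type 2 depletion (-1.05 ± 0.21 to -1.54 ± 0.22, SD, n = 4 each, exact permutation p = 0.0571, 0.210 adjusted over the 11 comparisons made in Type 2). Sirpa was higher against the same markers by 2.51 (1.61 ± 0.73 to 4.13 ± 1.12, exact permutation p = 0.0286, adjusted 0.157, n = 4 each) and Cd47 by 1.86 (2.06 ± 0.75 to 3.93 ± 1.07, exact permutation p = 0.0286, adjusted 0.157, n = 4 each). For both genes every depleted tumour was above every control on this scale. The mean of the macrophage markers itself differed by -1.41, so a gene that did not change would also be higher on it. Without the markers, the log2 fold changes of Sirpa and Cd47 were 1.11 and 0.46, and neither passed. Relative to the T cell markers, the log2 difference was -0.61 for Pdcd1, 0.26 for Ctla4 and 0.62 for Lag3, with exact permutation p of 0.229, 0.714 and 0.571 (n = 4 each). None of the 11 comparisons in either tumour kind passed after adjustment. The lowest exact permutation p possible was 0.0286 in Type 2 and 0.0357 in Type 1. A single gene at that limit could not pass after adjustment over 11 comparisons, as the 0.157 of the fully separated Sirpa and Cd47 shows. Not passing therefore says little about any single gene.

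In Type 1, 0 of the 10 genes passed, and 0 of all 26463 genes did by limma-trend (percent called 0), with 4 of the 10 and 30.3% of all genes at an unadjusted p under 0.05. Of the 10 genes, 8 were lower in Type 1 TAM depleted than in Type 1 Control tumours, against 51.5% of all genes, with a median log2 fold change of -0.74 against -0.06. Without TAM depleted 3 the same number were lower, and the median was -0.28 against -0.11. After subtraction of the receptor-gene background 4 of the 10 were lower and the median was 0.43, against 0.73 over all genes. Scaling to the upper quartile or to reads outside the receptor genes moved the median of all genes from -0.06 to -0.50 and -0.52. Every value of this comparison sets high-background against low-background libraries, and so does not separate treatment from background.

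The lowest Type 1 values were those of Ctla4 and Pdcd1lg2. Ctla4 was at 23.8, 43.1, 26.2, 21.1 and 32.5 normalized counts in Type 1 Control tumours 1 to 5 and at 12.9, 10.9 and 0 after depletion. The groups did not overlap, which 28.6% of all genes also showed in this direction, and the log2 fold change was -2.42 (SE 0.88, limma-trend adjusted p = 0.107). Pdcd1lg2 was at 16.5, 37.3, 18.7, 24.1 and 5.41 in controls and at 11.2, 5.45 and 0 after depletion (log2 fold change -2.11, SE 0.95, limma-trend adjusted p = 0.148). Both genes had 0 reads in TAM depleted 3, which allows up to 1.72 normalized counts (3 reads, counting error only). Without that library the log2 fold change was -1.19 for Ctla4 and -1.05 for Pdcd1lg2. Havcr2 was at 43.4, 43.1, 67.5, 54.3 and 21.7 in controls and at 23.6, 22.996 and 11.5 after depletion (log2 fold change -1.18, SE 0.44, limma-trend adjusted p = 0.107). Only Control 5 came within the depleted range of Havcr2.

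Cd86 was at 91.9, 53.1, 49.99, 84.4 and 66.8 normalized counts in Type 1 Control tumours and at 54.5, 38.7 and 14.3 after depletion. TAM depleted 1 was above the lowest controls, and the log2 fold change was -1.08 (SE 0.41, limma-trend adjusted p = 0.112), or -0.54 without TAM depleted 3. Cd274 differed little in mean, at 74.3 ± 16.7 (SD, n = 5) and 81.9 ± 48.4 (SD, n = 3), and TAM depleted 3 was the lowest of the 8 libraries at 26.4. Its log2 fold change of -0.09 had a 95% interval from -1.49 to 1.31 (limma-trend adjusted p = 0.928), and it was 0.58 without TAM depleted 3. Pdcd1 ranged from 12.6 to 25.8 and from 3.44 to 20.2, Lag3 from 47.5 to 107 and from 27.5 to 60.1, and Cd80 from 27.5 to 51.3 and from 15.5 to 36.3 normalized counts (control and then depleted). These 3 genes had log2 fold changes of -0.84, -0.63 and -0.56 with overlapping groups (limma-trend adjusted p = 0.402, 0.402 and 0.378). The T cell markers were lower in the same tumours, by a mean difference of -1.504 (5.0007 ± 0.26 to 3.497 ± 1.47, exact permutation p = 0.0357, n = 5 and 3), the lowest p possible with 56 splits. The dendritic cell markers differed by -1.28 there (5.65 ± 0.10 to 4.37 ± 0.77, exact permutation p = 0.0357, n = 5 and 3).

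Sirpa and Cd47 were carried by 1 library of the Type 1 TAM depleted group. Sirpa was at 709, 493 and 2122 normalized counts there against 491, 659, 1377, 612 and 529 in controls, and Cd47 at 541, 558 and 1473 against 489.6, 688, 1079, 576 and 213. TAM depleted 3 was the highest of the 8 libraries for both genes, and Control 3 was next. Their log2 fold changes were 0.41 (SE 0.60, limma-trend adjusted p = 0.621) and 0.51 (SE 0.56, adjusted p = 0.514), and without TAM depleted 3 that of Sirpa was -0.20. The neuron markers differed by 0.09 in group mean in this comparison (exact permutation p = 0.893, n = 5 and 3). By library, their mean log2 level was highest in TAM depleted 3 (10.9) and next in Control 3 (10.6), the same order as for both genes. Their part in the Sirpa and Cd47 values was not tested.

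**Figure D5:**
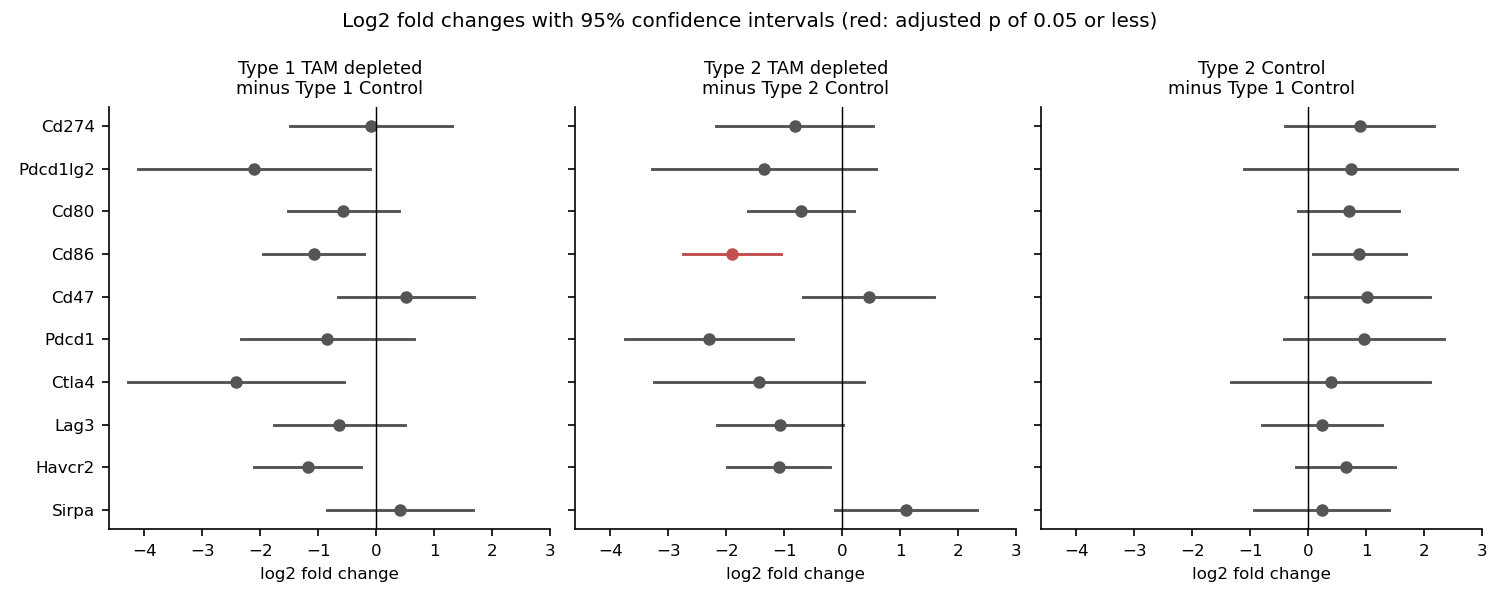
Log2 fold changes (points) with 95% confidence intervals (lines) of the 10 genes from limma-trend in the depletion comparison of each tumour kind and between the control tumours. Cd86 after Type 2 depletion, at -1.90, is the only value in red, which marks an adjusted p of 0.05 or less.

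The Control tumours were compared to ask how the tumour kinds differ without depletion. All 10 genes were higher in mean in Type 2 Control than in Type 1 Control tumours, against 37.8% of all genes, with a median log2 difference of 0.72 against -0.23. None passed the limma test (3.09% of all genes did), and adjusted p-values ranged from 0.290 to 0.837. The Cd86 log2 difference was 0.89 (SE 0.38, 95% interval 0.09 to 1.68, limma-trend adjusted p = 0.290), that of Cd47 1.02 (SE 0.51, adjusted p = 0.401) and that of Cd274 0.89 (SE 0.61, adjusted p = 0.553). All 5 Type 1 Control libraries and 2 of the 4 Type 2 Control libraries were high-background. Among high-background libraries alone 8 of 10 were higher, with a median of 0.38 against 0.13 over all genes, and with Lag3 at -0.50 and Sirpa at -0.55. All 14 macrophage markers were also higher in mean in Type 2 Control tumours, with 0 called, at a median log2 difference of 1.17. All 10 neuron markers were lower there with 3 called, at a mean log2 level of 7.21 ± 1.33 in Type 2 Control (n = 4) and 9.64 ± 0.73 in Type 1 Control tumours (SD, n = 5). Their part in these values was not tested.

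Between the TAM depleted tumours of Type 2 and Type 1, 0 of the 10 genes passed (0.185% of all genes did), 8 were higher in mean against 55.8% of all genes, and limma-trend adjusted p-values ranged from 0.519 to 0.962. Cd86, which differed between the controls by 0.89, differed here by 0.06 (SE 0.43, 95% interval -0.84 to 0.97). The test of the difference between the depletion responses of the tumour kinds called 0 of the 10 genes and 0 of all genes by limma-trend (10.1% of all genes, and 0 of the 10, were at an unadjusted p under 0.05). The Cd86 response differed by -0.82 on the log2 scale, Type 2 minus Type 1 (95% interval -2.03 to 0.39, limma-trend adjusted p = 0.547) and the Pdcd1 response by -1.46 (95% interval -3.54 to 0.62, adjusted p = 0.540). The fall of Cd86 in Type 2 is therefore not shown to differ from the value in Type 1.

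Of 46 further genes of these pathways, 44 could be tested (Cd70 and Ifng were not), in 5 lists of partners and regulators. After Type 2 depletion 37 of the 44 were lower and 4 were called, all lower, with a median of -1.11. Over all genes 59.4% were lower, 1.24% were called lower and the median was -0.21. Ptpn6, the phosphatase SHP-1 that acts downstream of inhibitory receptors, fell from 85.8, 236, 216 and 348 to 33.6, 101, 34.5 and 108 normalized counts (log2 fold change -1.71, limma-trend adjusted p = 0.0463). Thbs1, thrombospondin-1, a secreted ligand of CD47, averaged 396 ± 138 in controls and 122 ± 52.8 after depletion (SD, n = 4 each) and fell by 1.72 on the log2 scale (limma-trend adjusted p = 0.0311). Ifngr1, an interferon gamma receptor chain, fell by 1.08 on the log2 scale (limma-trend adjusted p = 0.0363), and Pvr, the ligand of TIGIT and CD226, fell by 1.18 (adjusted p = 0.0427). The depleted tumours were all below the controls for Thbs1, Ifngr1 and Pvr, and overlapped the controls for Ptpn6. All 9 other B7 and CD28 family genes and all 9 tested TNF family co-stimulation genes were lower in mean with 0 called, at medians of -1.13 and -1.51.

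In Type 1, 27 of the 44 partner genes were lower after depletion, against 51.5% of all genes, and 0 were called. The lowest unadjusted p-values were those of Cd28, the activating receptor of CD80 and CD86, at a log2 fold change of -2.52, and Tnfsf4, the OX40 ligand, at -3.32. Their limma-trend adjusted p of 0.103 was shared by Vtcn1 and Cd40lg. Between the controls 33 of the 44 were higher in Type 2, against 37.8% of all genes. Called higher were 5, against 3.09% of all genes called in either direction. These were Pvr (1.81), Ifngr1 (1.39), Thbs1 (1.86), Cd200 (1.81) and Tnfrsf14 (2.24 on the log2 scale), with limma-trend adjusted p-values from 0.00179 to 0.0234. Cd200 restrains myeloid cells through its receptor, and Tnfrsf14 (HVEM) binds BTLA and CD160. Cd24a, whose product binds Siglec receptors of myeloid cells, was the 1 gene called lower, at -2.68 (limma-trend adjusted p = 0.0397).

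For the members with a mean of 50 or more normalized counts, the genes whose levels followed them most closely over the 16 libraries were taken from 12831 genes by Pearson's r. These libraries share the background and the group differences. To take out the group differences, r was also taken on deviations from the 4 group means. That step leaves the background in place within groups that hold both high-background and low-background libraries. Both measures can therefore still carry the shared background, and its part in each r was not tested. For Cd86 the highest r of deviations were those of Cybb (0.90), an oxidase subunit of phagocytes, Lyz2 (0.86), the lysozyme of myeloid cells, and Apobec1 (0.86). For Cd274 they were Parp14 (0.95), complement C3 (0.95) and Themis2 (0.94), and by levels C3 (0.92), the interferon-induced GTPase Gbp4 (0.92) and Serping1 (0.91). For Lag3 Pik3r5 led by both measures (0.91 each). Sirpa was closest to the neuronal gene Olfm1 by deviations (0.98) and to Hivep3 by levels (0.96), and Cd47 to Cdadc1 (0.97) and Fam102a (0.96).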

How the data were processed

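The authors deposited gene values on a log2 scale, in 1 table of all 16 libraries and 1 per tumour kind. TRIzol and miRNeasy extraction and SMART-Seq v4 libraries, which do not mark strand, were used per the labels' protocols. The submitters' processing notes name STAR 2.7.8a, GRCm38 and DESeq2. The counting tool and annotation are not stated there. These deposited log2 values were found to be variance-stabilized with a floor of 3.74, not linear as the planned design allowed for, and were inverted to normalized counts. In 100% of values these were whole multiples of a library's step (tolerance 0.05 reads), from which reads were taken. No count model was fitted because the deposited unit is no count, though the reads would have allowed it.

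Genes with 10 or more normalized counts in at least 3 libraries were tested (26463 genes) on log2(normalized count + 1), which understates changes of low genes. One 2-sided limma-trend model (limma 3.58.1 in R 4.3.3) held a mean per group for the 16 libraries, with 12 residual degrees of freedom. P-values were Benjamini-Hochberg adjusted across all of these genes, with 0.05 as the threshold. Log2 fold changes are differences of these group means on the log2 scale, and a fold is 2 to the power of the size of that difference. Ratios of 2 genes within a library used normalized count + 1, divided by kb of exon. Single scores were compared by 2-sided exact permutation of the difference of means over all splits, doubling the smaller tail (Python 3.11.15 with numpy 2.4.6). Groups and replicate numbers came from the sample titles. The code was tested on simulated data. Exon lengths and positions are those of GENCODE vM21, and promoters those of RefSeq (GRCm38.p6). Reads carry no molecular identifiers, so counting limits cover counting error only.

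The members and the lists were chosen with earlier results of these data known, so their directions are no independent evidence. All 10 members were named in each comparison, and of the further pathway genes those past the threshold, or the lowest adjusted p where none passed. Alternatives were pseudocounts of 0.5 and 8, filters, other scalings, limma-voom, the deposited log2 values, library weights, a replicate block, background terms and single libraries left out. Those on receptor-gene reads and the ratios were chosen after seeing the data.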

Additional observations from a re-analysis of the deposited data

Results flagged for a closer look

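The Sirpa level of Type 1 Control 3, at 1377 normalized counts, stood apart from the other 4 Type 1 Control libraries, which lay between 491 and 659. It was the 1 library found in 30 groups of member values of this kind, and chance alone marks about 1 in 20 groups. Without that library no member's direction or call changed in the Type 1 depletion comparison or between the controls. Type 1 Control 3 also had the highest mean log2 level of the neuron markers among the Type 1 Control libraries, at 10.6. The part of these markers in its Sirpa level was not tested.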

How the results depend on the processing

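Of the 10 genes, Cd86 was called after Type 2 depletion in the fit as reported. The number called was 2 with upper quartile scaling, with scaling to reads outside receptor genes and Gm10800 and with the background set as a term (Cd86 and Pdcd1), and 2 with limma-voom (Cd86 and Havcr2). It was 0 in high-background or low-background libraries alone, with only the groups of the contrast and with the receptor-gene background subtracted. Leaving out single libraries gave 0 (without Control 3, or without TAM depleted 1) to 2 (Cd86 and Lag3, without Control 1). In Type 1 it was 2 (Havcr2 and Ctla4) with library quality weights and with only the groups of the contrast, and between the controls 3 (Cd274, Cd86 and Cd47) with the weights. The cause was not tested. Between only the groups of the contrast, 9375 genes were called in Type 1 and 0 in Type 2 (3171 at an unadjusted p under 0.05), against 0 and 956 in the fit as reported. Over all genes in Type 2 it was also 2635 with the background term, 573 in high-background libraries, 436 with weights and 0 subtracted, and in Type 1 13721 with weights. Between the controls 819 genes became 1804 with quantile normalization, 2343 with voom, 6559 with weights, 347 with the replicate block and 339 subtracted, and 510 to 1141 with single libraries left out.

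None of the values that changed direction had passed the test. In Type 1 the log2 fold change of Cd274 was 0.22 with quantile normalization, 0.33 with quality weights and 0.72 with background subtracted, and from -0.46 to 0.58 with single libraries left out. For Cd80 it was 0.43 with quantile normalization, 0.0102 with the background term and 2.25 subtracted, for Cd47 -0.0831 and -0.65 (quantile normalization and background term), for Pdcd1 1.06 and 1.82 (quantile normalization and subtracted), and for Havcr2 0.36 subtracted. For Sirpa it was -0.19 with quantile normalization, -0.0399 with upper quartile scaling, -0.058 with reads outside receptor genes, -0.94 with the background term and -0.20 to 0.85 with single libraries left out. In Type 2 Cd274 was at 0.047 in high-background libraries and 0.24 subtracted, Cd80 at 0.14 subtracted, and Cd47 at -0.000388 with quantile normalization and -0.21 with weights. Between the controls Pdcd1lg2 was at -0.34 and Ctla4 at -0.46 with weights, and Lag3 at -0.0245 (quantile normalization), -0.14 (background term), -0.50 (high-background) and -0.47 (subtracted). Sirpa was there at -0.44 (background term) and -0.55 (high-background). With single libraries left out Ctla4 ran from -0.00422 to 0.82, Lag3 from -0.0529 to 0.85 and Sirpa from -0.0419 to 0.66. Relative to markers in Type 2, Cd80 was at -0.0367 and Ctla4 at -0.0151 in high-background and Pdcd1lg2 at -0.48 in low-background libraries.

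Replicate numbers are shared between groups, but no label says that a number marks a shared animal, so the numbers were not taken as pairs. The correlation of deviations between same-numbered libraries was -0.67, 0.50, 0.30 and -0.60 for numbers 1 to 4 in Type 2. In Type 1 it was -0.05, -0.16 and 0.37 for numbers 1 to 3. In Type 2 it was positive between libraries of the same background set and negative across sets, whatever their numbers. These correlations therefore cannot decide whether the numbers mark pairs. With the replicate block Cd86 still passed after Type 2 depletion (log2 fold change -1.90, limma adjusted p = 0.0449), 1 of the 10 genes was called, and the block lowered the count over all genes from 956 to 297.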
